A study of Mus musculus with 12 samples.

Results

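The 38 genes described here take up fatty acids into the heart, break them down in mitochondria and use ketone bodies. They were chosen by name for these roles, as rows of the deposited tables for a fixed list of symbols, a rule that uses no measured value. All 38 were found among the 38293 genes of the tables, and all 38 passed the filter on low counts that left 14770 genes tested. Healthy mice of the C57BL/6J strain had the chest opened and the heart muscle injected with 2 doses of 10 µl, and RNA of the left ventricle was sequenced 3 days later. The injected material was Upy-PEG with antimiR-195, Upy-PEG alone, or phosphate-buffered saline (PBS), with 4 libraries in each group, and the antimiR-195 group carried the gel as well as the oligonucleotide. The polymer Upy-PEG, poly(ethylene glycol) joined through ureidopyrimidinone groups, forms a hydrogel. The oligonucleotide antimiR-195 binds and blocks the microRNA miR-195. Every group had surgery and injection, and ventricle tissue was sequenced whole. The libraries are listed as separate samples without a statement that each came from its own animal, so p-values measure the spread between these samples, which may be technical.

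Adult heart muscle draws most of its energy from fatty acids. Lipoprotein lipase frees them from circulating triglyceride, membrane proteins and a binding protein carry them into the cell, and the carnitine shuttle passes them into mitochondria. There beta-oxidation shortens the chain by repeated rounds of dehydrogenation, hydration, a further dehydrogenation and thiolysis, releasing acetyl-CoA. Nuclear receptors and a coactivator, PPAR alpha, ERR alpha and PGC-1 alpha, switch these genes on together, and injured or stressed hearts are known to use less fat and more glucose. Ketone bodies enter the citric acid cycle by a separate short route.

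The libraries held 22353241 to 30278621 counts on genes and 18668 to 19740 detected genes. Upy-PEG antimiR-195 replicates 2 and 3 stood apart, at -60.2 and -40.7 on the leading principal component, against -8.5 to 33.4 in the other libraries. Their counts leaned to short genes, with slopes of log2 CPM on gene length of -0.229 and -0.135, against -0.042 to 0.122 in the other libraries. Upy-PEG replicate 1 stood apart on the next component, at -47.5. Without Upy-PEG replicate 1, the log2 difference of Upy-PEG minus PBS was smaller by over 1.5 times in 24 of the 38 genes and changed sign in 3. Without antimiR-195 replicates 2 and 3, that of antimiR-195 minus Upy-PEG was smaller by as much in 16, larger in 7 and of the other sign in 6. The cardiomyocyte markers were present in every library, at summed levels of 116566 to 130434 CPM with antimiR-195, 86651 to 118099 CPM with Upy-PEG and 120252.0 to 138707 CPM with PBS.

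MiR-195 silences messenger RNAs that pair with its seed, and antimiR-195 is meant to release them, so the seed and its matches in the fatty acid genes are shown. The mature mouse miR-195a-5p (RefSeq, GRCm38.p6, chr11:70235062-70235082, plus strand) is printed with bases 2 to 8, the seed, in capitals. Under it stand matches in the 3' untranslated regions (GENCODE M21, longest annotated region of the gene), with the 7 bases that pair with the seed in capitals.

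miR-195a-5p: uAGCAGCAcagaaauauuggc
Acadm: ctccaagcactgtTGCTGCTt
Decr1: cctcatccccatcTGCTGCTt
Cpt1a, upstream match: ggatatgtgagggTGCTGCTt
Cpt1a, downstream match: cagtgtccttcctTGCTGCTc
Pdk4: gggtctgtggcatTGCTGCTt
Ucp3: cagaaccctgcacTGCTGCTg

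A match was found in 9 of the 38 genes (23.7%), against 3629 of 13331 tested genes with such a region (27.2%). The other genes with a match were Acsl1, Ehhadh, Esrra and Mlycd, with 2, 4, 2 and 4 matches, some of them overlapping. Between Upy-PEG antimiR-195 and Upy-PEG, the median log2 fold change was 0.11 over the 9 genes with a match and 0.24 over the 29 without. Among those printed, Acadm and Decr1 had higher means with antimiR-195, at 0.30 ± 0.146 and 0.32 ± 0.143, and Cpt1a a lower one, at -0.39 ± 0.201 (log2 ± SE). Without antimiR-195 replicates 2 and 3 these were 0.25, 0.21 and -0.02. No value passed the test. A match of letters is no evidence that the microRNA binds there. Other mouse microRNAs hold the same seed, among them miR-15a-5p, miR-15b-5p, miR-16-5p and miR-497a-5p, so the matches are not particular to miR-195.

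Levels can be compared between genes as RPKM, reads per kilobase of gene scaled to the library total. In all 3 groups Fabp3, which binds fatty acids in the cytoplasm of muscle cells, stood highest of the 38. Its mean was 1509 ± 282 RPKM with antimiR-195, 1221 ± 244 RPKM with Upy-PEG and 1312 ± 132 RPKM with PBS (± SD of 4 libraries). In PBS hearts the next were Lpl at 908 ± 214, Acaa2 at 596 ± 62.3, Acadl at 553 ± 24.7 and Etfb at 547 ± 106 RPKM. The spreads of Acaa2, Acadl and Etfb overlapped, and their order was not tested. The lowest 4 were Ppara at 5.55 ± 2.49, Ehhadh at 4.43 ± 0.499, Angptl4 at 2.23 ± 0.506 and Cpt1b at 1.96 ± 0.525 RPKM. Together the 38 genes held 2.41%, 2.46%, 2.41% and 2.33% of all gene counts in the 4 antimiR-195 libraries, 1.83%, 2.18%, 2.58% and 2.27% in the Upy-PEG libraries, and 2.75%, 2.45%, 2.26% and 2.33% in the PBS libraries.

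The value of Cpt1b needs a limit. It encodes the muscle form of carnitine palmitoyltransferase, which loads long-chain fatty acids onto carnitine and is known to be abundant in heart muscle, yet only 40 to 220 reads per library were counted on it. In GENCODE M21, 81.4% of its exon bases also belong to Gm44502, a gene on the same strand that is absent from the counts. The neighbouring Chkb had 1057 to 1719 reads over a length of 5805 bases, which exceeds its M21 span of 3549 bases. The annotation behind the counts is not given in the sources used here, so it is not known where reads shared by such genes were placed, and the level and differences of Cpt1b are uncertain. Etfb shares 58.2% of its exon bases with Gm45233 and Mir7051, also absent from the counts, and where such reads were placed is likewise not known. Its counts were not low, at 11101 to 24209 per library. Of the genes analysed here, none shares exon bases with Cpt1b or Etfb on the same strand. Genes on the opposite strand overlap 42.9% of the exon bases of Acadvl, 19.6% of Fabp3, 13.7% of Bdh1 and 12.6% of Oxct1, and the strand setting of the counting is not given in the sources used here.

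The gel itself was tested by Upy-PEG against PBS. With Upy-PEG, 37 of the 38 genes had a lower fitted level than with PBS, and only Angptl4 was higher. The median log2 fold change was -0.25, a fold of 0.839, against -0.03 over all tested genes, 55.3% of which were lower. No gene of the 38 passed an adjusted p of 0.05, and none of the 14770 genes did (0%). The smallest adjusted p among the 38 was 0.304, for Hadha. With library size as the sole scaling, 33 of the 38 were lower and 35.2% of all genes, and the median of all genes was 0.073. At an unadjusted p under 0.05, 3 of the 38 were lower (Hadha, Cpt2 and Hadh), against 3.83% of all genes lower and 9.33% higher. The 4 Upy-PEG libraries lay wholly under the 4 PBS libraries for 2 of the 38 (Cpt2 and Hadha), against 3.77% of all genes, and wholly above them for none, against 5.91%. Other tools gave different backgrounds: DESeq2 called 3.46% of all genes and none of the 38, and limma voom with sample weights called 6.22% and 1 of the 38, Hadha, at an adjusted p of 0.0468. Upy-PEG replicate 1 was the lowest of all 12 libraries for 24 of the 38 genes. Without it the median was -0.132, with 34 of 38 lower, against 52.2% of all genes, and without Upy-PEG replicate 3 the median was -0.361. The number lower at an unadjusted p under 0.05 was 0 without Upy-PEG replicate 1 and 0 without replicate 2, against 2.14% and 1.94% of all genes in those fits, and 15 without replicate 3, against 4.22%.

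The oligonucleotide was tested by Upy-PEG antimiR-195 against Upy-PEG. With antimiR-195, 29 of the 38 genes had a higher fitted level than with Upy-PEG and 9 a lower one. The median log2 fold change was 0.20, a fold of 1.15, against -0.01 over all genes, 50.8% of which were lower. With library size as the sole scaling, 23 were higher and 15 lower, against 71.1% of all genes lower, and the median of all genes was -0.156. No gene of the 38 passed, the smallest adjusted p was 0.364, and no gene of the whole table passed (0%). At an unadjusted p under 0.05, 5 of the 38 were higher (Hadhb, Etfb, Fabp3, Decr1 and Eci1), against 6.67% of all genes higher, and none was lower, against 6.4%. No gene of the 38 separated the 4 libraries of each group, against 1.94% of all genes higher and 2.46% lower. The median was 0.098 without Upy-PEG replicate 1. In that fit the sole gene of the 38 at that p in either direction was a lower one, against 2.79% of all genes lower. Without Upy-PEG replicate 3 the median was 0.316, with 16 higher at that p, against 7.8% of all genes. At that p 13 were higher without antimiR-195 replicate 4, against 13%, and none without replicate 3, against 2.75%. Without antimiR-195 replicates 2 and 3 the median was 0.200, with 33 higher and 5 lower, against 47.7% of all genes lower. In that fit none of the 38 had an unadjusted p under 0.05, against 2.45% of all genes higher. This comparison shares its Upy-PEG libraries with the previous one, so opposite directions in the pair are not separate observations.

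Upy-PEG antimiR-195 was also compared with PBS. With antimiR-195, 22 of the 38 were lower and 16 higher than with PBS, against 49.2% of all genes lower. The median log2 fold change was -0.01, against 0.01 over all genes. With library size as the sole scaling, 28 were lower, against 55.7% of all genes. Without antimiR-195 replicates 2 and 3, 28 were lower, against 51.1% of all genes, and the median was -0.045. With each library's slope on gene length as a covariate, 35 were lower, against 51.5% of all genes, and the median was -0.126. No gene passed in the list or in the whole table (0%), and the smallest adjusted p of the 38 was 0.284. Hadha alone had an unadjusted p under 0.05, lower with antimiR-195, against 7.89% of all genes lower and 8.65% higher. Without antimiR-195 replicate 1, 7 were lower at that p, against 10.9% of all genes. Its 4 antimiR-195 libraries lay under the 4 PBS libraries, which 3.32% of all genes did, while none of the 38 lay above, against 2.74%. The PBS libraries are those of the gel comparison.

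**Figure D1:**
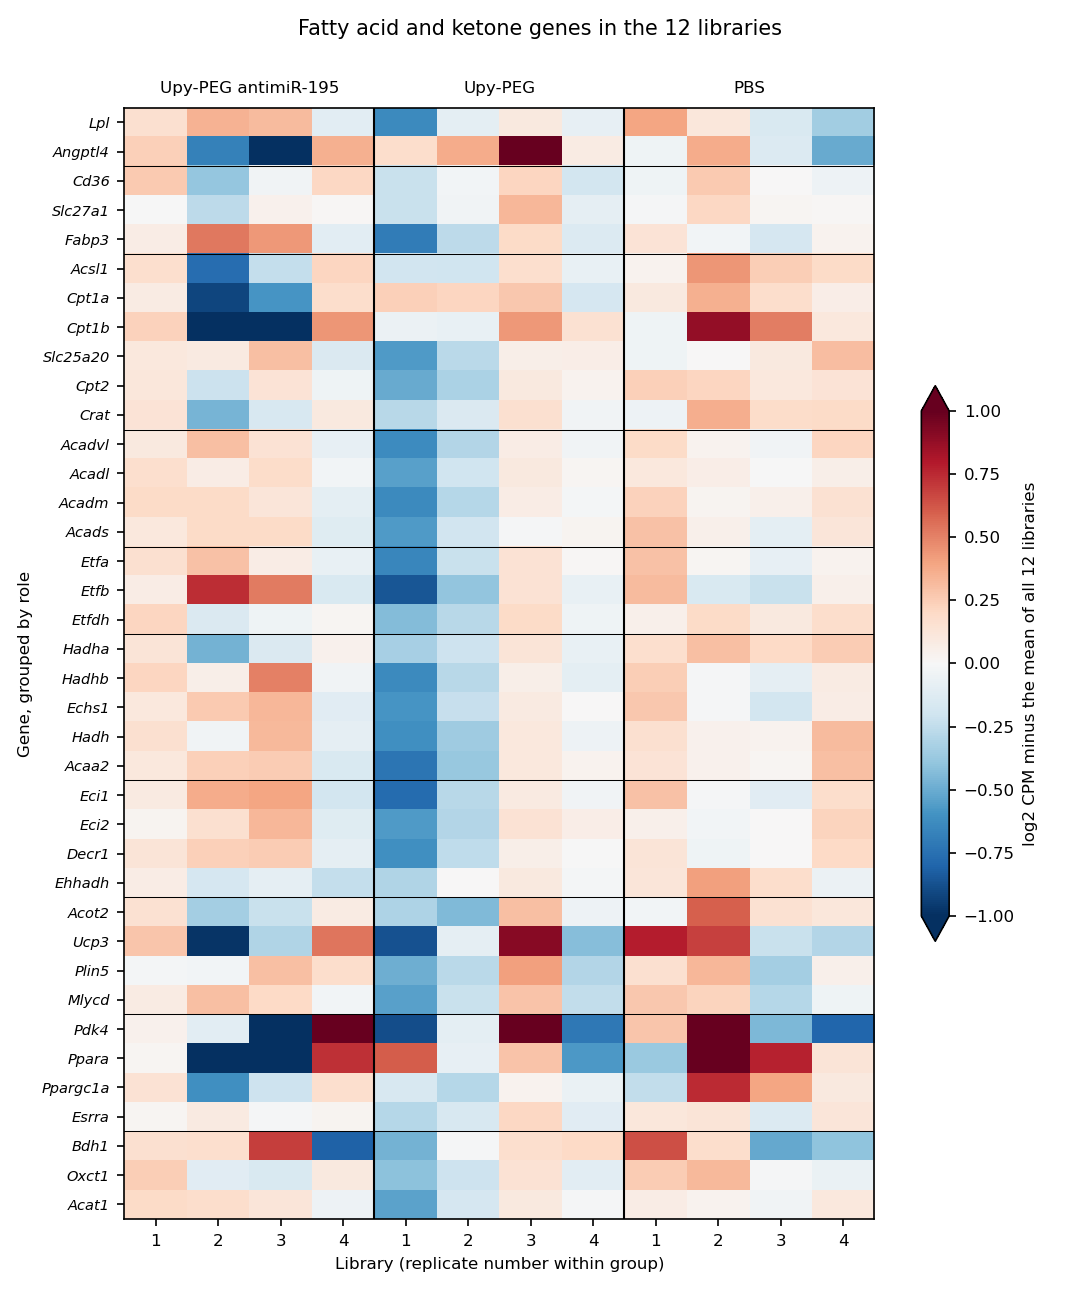
Each cell is the log2 CPM of a gene in a library minus the mean of that gene over the 12 libraries, with red above and blue below that mean and colours capped at -1 and 1. Columns are the 4 libraries of Upy-PEG antimiR-195, Upy-PEG and PBS, and rows are the 38 genes grouped by role. Upy-PEG replicate 1 is blue in most rows, being the lowest library for 24 genes, while Pdk4 and Ucp3 vary within every group.

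**Figure D2:**
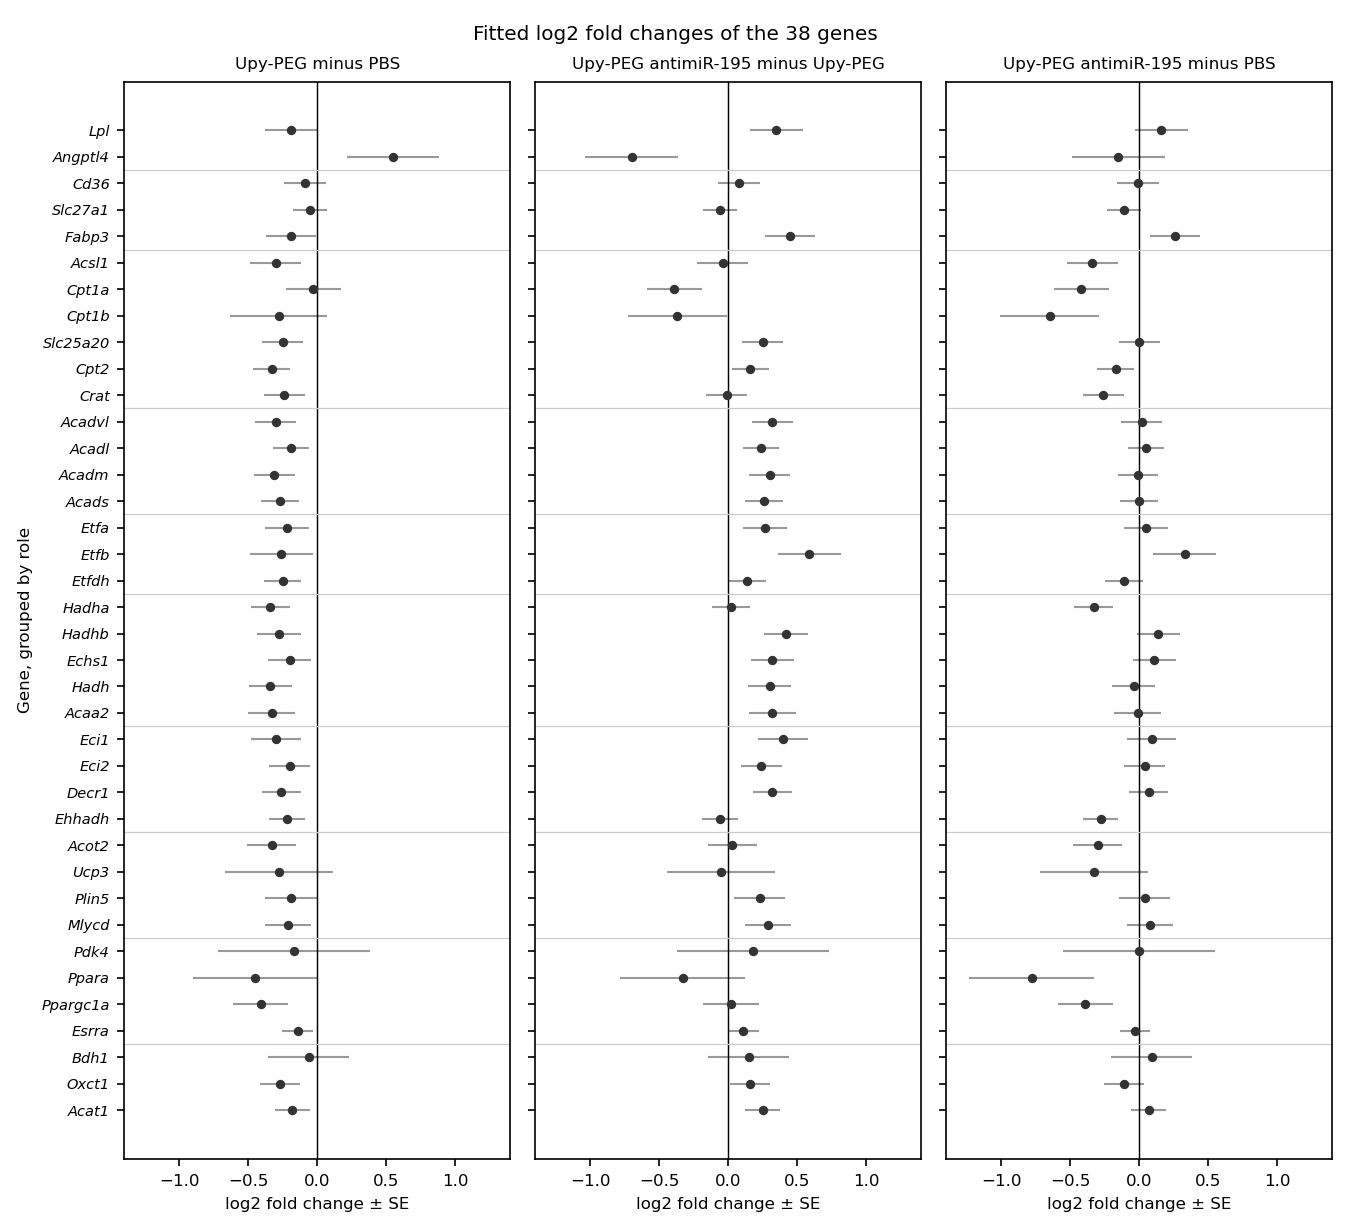
Points are fitted log2 fold changes and bars their SE, for each of the 38 genes in 3 comparisons, Upy-PEG minus PBS, Upy-PEG antimiR-195 minus Upy-PEG and Upy-PEG antimiR-195 minus PBS. In the left panel 37 points lie left of 0, in the middle panel 29 lie right of it, and in the right panel 22 lie left.

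Supply of fatty acids begins with Lpl, lipoprotein lipase, and its inhibitor Angptl4. Lpl had 6843, 7782, 7601 and 5672 CPM (counts scaled to library size with TMM factors) in antimiR-195 libraries, 3927, 5708, 6531 and 5770.2 CPM in Upy-PEG libraries and 8058, 6633, 5499 and 4813 CPM in PBS libraries, in the order of replicates 1 to 4. Upy-PEG replicate 1 was the lowest and PBS replicate 1 the highest, and the groups overlapped. The log2 difference was -0.19 ± 0.191 for Upy-PEG minus PBS and 0.35 ± 0.191 for antimiR-195 minus Upy-PEG (± SE, adjusted p = 0.753 and 0.412). Without Upy-PEG replicate 1 these were -0.05 and 0.21, and the second was 0.19 without antimiR-195 replicates 2 and 3. Angptl4 had 9.09, 4.82, 2.98 and 9.87 CPM with antimiR-195, 8.67, 9.98, 16.9 and 8.13 CPM with Upy-PEG and 7.49, 9.93, 6.99 and 5.42 CPM with PBS. Its highest library was Upy-PEG replicate 3, its lowest antimiR-195 replicates 2 and 3, and all groups overlapped. It differed by 0.55 ± 0.336 between Upy-PEG and PBS and by -0.70 ± 0.339 between antimiR-195 and Upy-PEG, with adjusted p of 0.546 and 0.383. The antimiR-195 difference was -0.20 once replicates 2 and 3 of that group were left out. Angptl4 was the sole gene of the 38 on the other side of 0 from the rest in the gel comparison.

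Of the uptake proteins, Cd36 and Slc27a1 had differences smaller than their SE between Upy-PEG and PBS. Cd36, the fatty acid translocase of muscle, fat and capillaries, had 1607, 1026, 1308 and 1546 CPM with antimiR-195, 1144, 1309.5, 1551 and 1178 CPM with Upy-PEG and 1300.4, 1604, 1338 and 1291 CPM with PBS. The groups overlapped, and the log2 difference was -0.09 ± 0.154 for Upy-PEG minus PBS and 0.08 ± 0.154 for antimiR-195 minus Upy-PEG. Slc27a1, a fatty acid transport protein, differed by -0.05 ± 0.124 and -0.06 ± 0.124 in the same comparisons. Fabp3 had 1152, 1574, 1478 and 1018 CPM with antimiR-195, 674, 912, 1249 and 992 CPM with Upy-PEG and 1200.4, 1074, 976 and 1118 CPM with PBS. The 2 highest of its 12 values were antimiR-195 replicates 2 and 3, and the lowest was Upy-PEG replicate 1. The log2 difference was 0.45 ± 0.183 for antimiR-195 minus Upy-PEG (unadjusted p = 0.0282, adjusted p = 0.365). Leaving out those 2 antimiR-195 libraries gave 0.18.

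Activation and the carnitine shuttle hold 6 of the genes, all lower with Upy-PEG than with PBS, against 55.3% of all genes. At an unadjusted p under 0.05, 1 of them, Cpt2, was lower, against 3.83% of all genes. Acsl1, the main long-chain acyl-CoA synthetase of the heart, had 862, 454, 649.8 and 889.8 CPM with antimiR-195, 674, 668, 865 and 730.0 CPM with Upy-PEG and 787, 1043, 913 and 879 CPM with PBS. Its lowest value by far was antimiR-195 replicate 2 and its highest PBS replicate 2, and the log2 difference of Upy-PEG minus PBS was -0.30 ± 0.186 (adjusted p = 0.55). Cpt2, the carnitine acyltransferase of the inner membrane that hands the chain back to coenzyme A, had 296, 236, 300.3 and 264 CPM with antimiR-195, 192, 219, 292 and 279 CPM with Upy-PEG and 321, 316, 294 and 300.4 CPM with PBS. All 4 Upy-PEG values lay under the lowest PBS value, with replicate 3 only just under it. The log2 difference was -0.33 ± 0.135 (unadjusted p = 0.0301, adjusted p = 0.307), and -0.22 without Upy-PEG replicate 1. With antimiR-195 the mean of Cpt2 lay between those of the other groups, at 0.16 ± 0.135 against Upy-PEG and -0.17 ± 0.135 against PBS.

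The outer membrane step had a different pattern from Cpt2. Cpt1a, the form of the enzyme that prevails in liver and many other tissues, had 46.2, 23.2, 29.1 and 49.4 CPM with antimiR-195, 51.7, 50.8, 52.7 and 39 CPM with Upy-PEG and 46.9, 55.9, 49.3 and 45.9 CPM with PBS. Upy-PEG and PBS overlapped, at a log2 difference of -0.03 ± 0.2. AntimiR-195 replicates 2 and 3 were the 2 lowest of the 12, and the difference from PBS was -0.42 ± 0.201 with them (adjusted p = 0.307) and -0.04 without them. Cpt1b, whose counts are uncertain as described, had 5.94, 1.72, 2.49 and 6.89 CPM with antimiR-195, 4.88, 4.82, 6.83 and 5.65 CPM with Upy-PEG and 4.92, 9.33, 7.24 and 5.46 CPM with PBS. The same 2 antimiR-195 libraries were its lowest, and the difference between antimiR-195 and Upy-PEG was -0.37 ± 0.358 with them and 0.22 without. The carrier Slc25a20, which exchanges acylcarnitine for carnitine, and Crat, which acts on short acyl groups, differed by -0.25 ± 0.148 and -0.24 ± 0.148 between Upy-PEG and PBS.

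The acyl-CoA dehydrogenases, which start each round of beta-oxidation on chains of decreasing length, stood together. All 4 were lower with Upy-PEG than with PBS, from -0.31 to -0.19 with a median of -0.28, and all 4 were higher with antimiR-195 than with Upy-PEG, from 0.24 to 0.32. None of the 4 had an unadjusted p under 0.05. Of all genes 55.3% and 50.8% were lower in these comparisons, with 3.83% and 6.4% lower at that p. The medium-chain enzyme Acadm had 1209, 1207, 1149 and 988 CPM with antimiR-195, 678, 865, 1111 and 1042 CPM with Upy-PEG and 1242, 1075, 1094 and 1174 CPM with PBS. Upy-PEG replicates 1 and 2 were the lowest of the 12, while replicates 3 and 4 of that group lay close to or inside the PBS range. It differed by -0.31 ± 0.146 between Upy-PEG and PBS (adjusted p = 0.385). The very-long-chain enzyme Acadvl had 1164, 1340.0, 1202 and 1028 CPM with antimiR-195, 702, 889, 1143 and 1059 CPM with Upy-PEG and 1242, 1114, 1059 and 1264 CPM with PBS, and a difference of -0.30 ± 0.149 (adjusted p = 0.415). The short-chain enzyme Acads had 217, 231, 231 and 186 CPM with antimiR-195, 137, 178, 201 and 206 CPM with Upy-PEG and 248, 209, 189 and 220.2 CPM with PBS, and a difference of -0.27 ± 0.137 (adjusted p = 0.442). In each of the 3, Upy-PEG replicate 1 was the lowest library and the groups overlapped. Without it the differences of Acadm, Acadvl and Acads were -0.18, -0.18 and -0.15.

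Electrons from these dehydrogenases pass through the flavoprotein subunits Etfa and Etfb to Etfdh, which hands them to ubiquinone. The 3 genes were lower with Upy-PEG than with PBS, from -0.26 to -0.22, and higher with antimiR-195 than with Upy-PEG, from 0.14 to 0.59. Of all genes 55.3% and 50.8% were lower in these comparisons. Etfb had 658, 1042, 893 and 559.8 CPM with antimiR-195, 345, 474, 689.8 and 591 CPM with Upy-PEG and 777, 561, 533 and 645 CPM with PBS. AntimiR-195 replicates 2 and 3 were again the 2 highest libraries, and replicates 1 and 4 of that group lay within the range of the Upy-PEG libraries. The log2 difference of antimiR-195 minus Upy-PEG was 0.59 ± 0.228 (unadjusted p = 0.0224, adjusted p = 0.364), and 0.21 without those 2 libraries. Etfa, its partner in the same heterodimer, differed by 0.27 ± 0.159 in that comparison, and Etfdh by 0.14 ± 0.135.

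Hydration, the second oxidation and thiolysis gave the lowest p of the list. Hadha and Hadhb encode the alpha and beta subunits of the mitochondrial trifunctional protein, which carries out these steps on long chains. Hadha had 1469.7, 965, 1212 and 1378 CPM with antimiR-195, 1065, 1164, 1465 and 1276 CPM with Upy-PEG and 1507, 1655, 1544 and 1603 CPM with PBS. All 4 PBS values lay above all 8 values of the other groups, by a narrow margin over antimiR-195 replicate 1 and Upy-PEG replicate 3. The difference from PBS was -0.34 ± 0.142 for Upy-PEG (unadjusted p = 0.0294, adjusted p = 0.304) and -0.33 ± 0.142 for antimiR-195 (unadjusted p = 0.0365, adjusted p = 0.284). Without antimiR-195 replicates 2 and 3 the second value was -0.14. Hadhb had 852, 762, 1038 and 717 CPM with antimiR-195, 470.4, 605, 762 and 683 CPM with Upy-PEG and 869.5, 725, 687 and 774 CPM with PBS. Its lowest library was Upy-PEG replicate 1, its highest antimiR-195 replicate 3, and the groups overlapped. It differed by -0.28 ± 0.159 between Upy-PEG and PBS and by 0.42 ± 0.159 between antimiR-195 and Upy-PEG (unadjusted p = 0.02, adjusted p = 0.364), and the second of these was 0.32 without antimiR-195 replicates 2 and 3. Without Upy-PEG replicate 1 they were -0.16 and 0.30.

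The subunit genes thus had unlike values with antimiR-195. The log2 ratio of Hadha to Hadhb counts was 0.79, 0.34, 0.22 and 0.94 in antimiR-195 libraries, 1.18, 0.94, 0.94 and 0.90 in Upy-PEG libraries, and 0.79, 1.19, 1.17 and 1.05 in PBS libraries. The low ratios were those of antimiR-195 replicates 2 and 3, the libraries that leaned to short genes, and the part of that lean in the ratio was not tested, while replicates 1 and 4 lay at 0.79 and 0.94, within the range of the PBS libraries. By the RPKM table the gene lengths are 5341 bases for Hadha and 6595 for Hadhb. The genes are transcribed away from each other from a shared start region, which is why their promoter is shown. Printed are the 250 bases before the start of Hadha (RefSeq, GRCm38.p6, chr5:30154981-30155230, minus strand, 5' to 3'), with the 228 bases that also lie in the promoter window of Hadhb in capitals.

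Hadha promoter: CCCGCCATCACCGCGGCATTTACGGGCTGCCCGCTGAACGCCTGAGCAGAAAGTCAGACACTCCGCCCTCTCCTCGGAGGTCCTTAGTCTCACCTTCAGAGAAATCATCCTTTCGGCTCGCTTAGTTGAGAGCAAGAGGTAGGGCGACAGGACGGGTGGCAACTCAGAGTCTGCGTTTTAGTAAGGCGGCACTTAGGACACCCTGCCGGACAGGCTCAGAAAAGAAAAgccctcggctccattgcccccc

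The other enzymes of these steps act on shorter chains. Hadh, the short-chain hydroxyacyl-CoA dehydrogenase, had 722, 628, 807 and 604 CPM with antimiR-195, 422, 504, 694 and 622 CPM with Upy-PEG and 719, 666, 661 and 801 CPM with PBS. Upy-PEG replicates 1 and 2 were its lowest libraries, while Upy-PEG replicate 3 lay inside the PBS range. The log2 difference of Upy-PEG minus PBS was -0.34 ± 0.155 (unadjusted p = 0.0435, adjusted p = 0.359), and -0.23 without Upy-PEG replicate 1. Acaa2, the thiolase that ends a round, had 899, 987, 998 and 752 CPM with antimiR-195, 504, 642, 899 and 857 CPM with Upy-PEG and 918, 859, 847 and 1029.5 CPM with PBS. Upy-PEG replicates 3 and 4 overlapped the PBS libraries, and the difference was -0.33 ± 0.17 (adjusted p = 0.437), and -0.19 without Upy-PEG replicate 1. Echs1, the short-chain hydratase, differed by -0.20 ± 0.155 between Upy-PEG and PBS and by 0.32 ± 0.155 between antimiR-195 and Upy-PEG.

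Auxiliary enzymes let unsaturated fatty acids enter the same cycle. Decr1, a dienoyl-CoA reductase, had 456, 494, 498 and 393 CPM with antimiR-195, 273, 350.5, 434 and 416 CPM with Upy-PEG and 456, 404, 418 and 480.1 CPM with PBS, and differed by 0.32 ± 0.143 between antimiR-195 and Upy-PEG (unadjusted p = 0.0418, adjusted p = 0.374). Eci1, an enoyl-CoA isomerase, had 302, 367, 373 and 249.5 CPM with antimiR-195, 167, 234, 302 and 277 CPM with Upy-PEG and 347, 281, 262 and 320.3 CPM with PBS, and differed by 0.40 ± 0.181 (unadjusted p = 0.0459, adjusted p = 0.376). In both genes the highest values were antimiR-195 replicates 2 and 3 and the lowest Upy-PEG replicate 1, and the differences were 0.21 and 0.17 without those antimiR-195 libraries and 0.20 and 0.25 without that Upy-PEG library. Ehhadh, the bifunctional enzyme of peroxisomes, had 12.7, 10.7, 11.3 and 10.2 CPM with antimiR-195, 9.76, 12.1, 12.9 and 11.9 CPM with Upy-PEG and 13.1, 16, 13.6 and 11.6 CPM with PBS. It stood at -0.28 ± 0.129 between antimiR-195 and PBS (unadjusted p = 0.0516, adjusted p = 0.302), with the groups overlapping between 11.6 and 12.7 CPM.

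Among the genes that handle surplus acyl groups, Ucp3, an inner membrane carrier raised by fatty acids, spread widely within every group. It had 46.1, 19.3, 30.9 and 55.3 CPM with antimiR-195, 20.8, 35.9, 71.7 and 28.4 CPM with Upy-PEG and 65.7, 61.2, 32.6 and 31.1 CPM with PBS, and differed by -0.28 ± 0.392 between Upy-PEG and PBS. The thioesterase Acot2, the droplet coat protein Plin5 and Mlycd, which removes the malonyl-CoA that blocks the carnitine shuttle, differed by -0.33 ± 0.177, -0.19 ± 0.186 and -0.21 ± 0.167 in that comparison, and by 0.03 ± 0.177, 0.23 ± 0.186 and 0.29 ± 0.168 between antimiR-195 and Upy-PEG. None of the 4 had an unadjusted p under 0.05.

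The regulators held the most variable genes of the list. Pdk4, the kinase that shuts pyruvate out of mitochondria when fat is burned, had 224, 203, 109 and 534 CPM with antimiR-195, 118, 204, 493 and 133 CPM with Upy-PEG and 265, 518, 159.6 and 126 CPM with PBS. A single library in each group stood far above the rest, antimiR-195 replicate 4, Upy-PEG replicate 3 and PBS replicate 2, and the other 9 lay between 109 and 265. Its SD within groups was 0.93 on the log2 scale, the largest of the 38, and the difference of Upy-PEG minus PBS was -0.17 ± 0.552. Ucp3 was also high in those 3 libraries, at 55.3, 71.7 and 61.2 CPM, with PBS replicate 1 higher still than the last of these. Ppara, the nuclear receptor for fatty acids, had 14.8, 5.03, 6.26 and 24.3 CPM with antimiR-195, 22.2, 13.8, 17.8 and 9.83 CPM with Upy-PEG and 11.3, 34.8, 24.9 and 16 CPM with PBS. Its lowest libraries were antimiR-195 replicates 2 and 3, and the difference from PBS was -0.78 ± 0.455 with them (adjusted p = 0.369) and -0.14 without. Ppargc1a, the coactivator PGC-1 alpha, had 100.5, 59.6, 79 and 102 CPM with antimiR-195, 81.4, 74.7, 93.5 and 86.8 CPM with Upy-PEG and 76.9, 152, 120.0 and 97.4 CPM with PBS. All but antimiR-195 replicate 2 and Upy-PEG replicate 2 lay within the range of the PBS libraries, and the difference of Upy-PEG minus PBS was -0.41 ± 0.201 (adjusted p = 0.416). Esrra, ERR alpha, was the steadiest gene of the list, with an SD of 0.14 within groups and a difference of -0.14 ± 0.112.

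**Figure D3:**
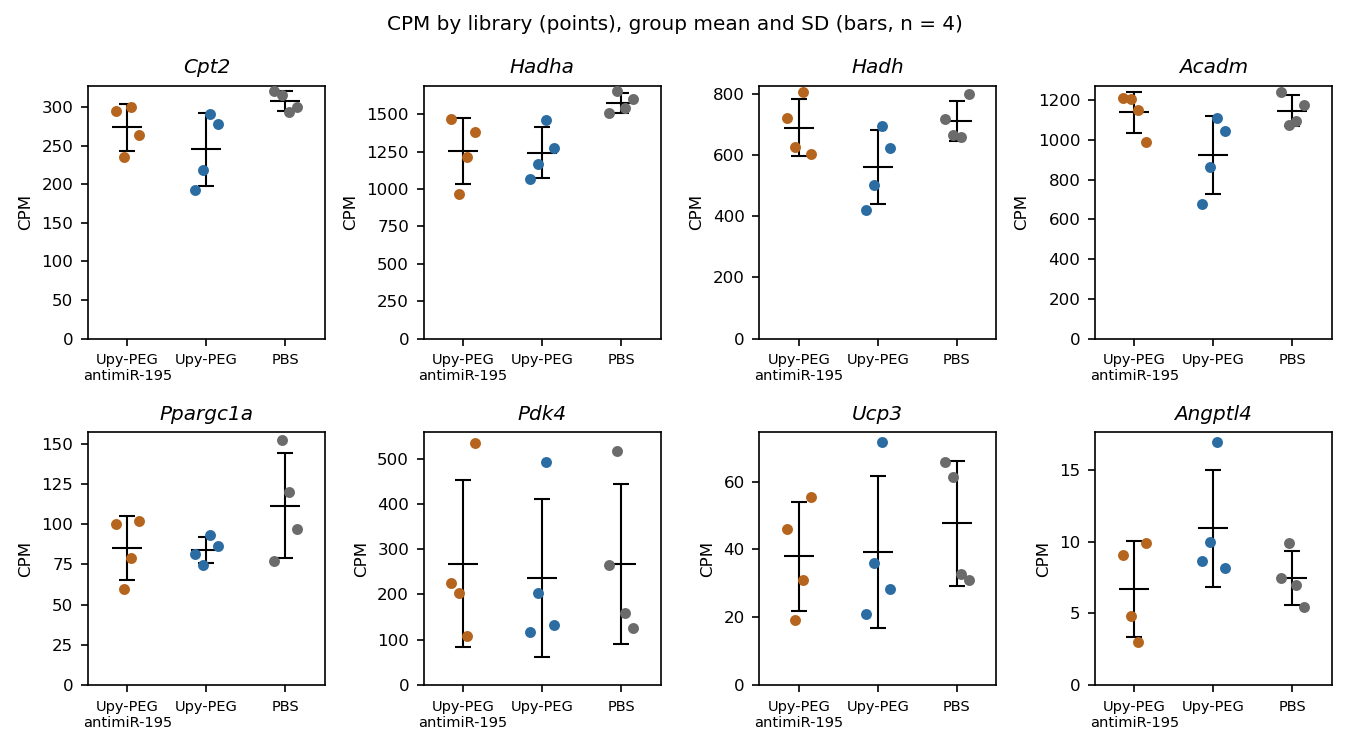
CPM of 8 genes in each library (points), with the group mean and SD (bars, n = 4), for Upy-PEG antimiR-195, Upy-PEG and PBS. The Upy-PEG points of Cpt2 and Hadha lie under all PBS points, those of Hadh and Acadm overlap them, and Pdk4 has a single high library in each group, at 534, 493 and 518 CPM.

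Ketone use rests on Bdh1, which oxidises beta-hydroxybutyrate, Oxct1, which activates acetoacetate, and Acat1, which splits it into acetyl-CoA. Bdh1 had 87.3, 87.6, 126 and 44.7 CPM with antimiR-195, 56.3, 77.4, 87.8 and 89.9 CPM with Upy-PEG and 122, 88.4, 54.7 and 59.1 CPM with PBS, with wide overlap and a difference of -0.06 ± 0.294 between Upy-PEG and PBS. Oxct1 had 1512, 1180.2, 1151 and 1364 CPM with antimiR-195, 964, 1108, 1409 and 1189.8 CPM with Upy-PEG and 1519.6, 1601, 1269.9 and 1223 CPM with PBS. Upy-PEG replicates 1 and 2 were its lowest libraries, and it differed by -0.27 ± 0.146 (adjusted p = 0.481). Acat1 differed by -0.18 ± 0.128 between Upy-PEG and PBS and by 0.25 ± 0.129 between antimiR-195 and Upy-PEG. None of the 3 had an unadjusted p under 0.05 in any comparison.

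Within groups the 38 genes had a median SD of 0.23 on the log2 scale, against 0.25 over all genes. Above 0.4 lay 6 genes, Pdk4 at 0.93, Ppara at 0.79, Ucp3 at 0.67, Cpt1b at 0.61, Angptl4 at 0.58 and Bdh1 at 0.51. The mitochondrial enzymes of the beta-oxidation cycle itself were steadier, from 0.18 for Acadl to 0.26 for Acaa2. The auxiliary and peroxisomal enzymes ran from 0.17 for Ehhadh to 0.29 for Eci1.

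Gene length went with the contrasts that hold antimiR-195 replicates 2 and 3. Across the 38 genes, which share these libraries, Pearson r between log2 fold change and log2 length was -0.33 for antimiR-195 minus Upy-PEG and -0.38 for antimiR-195 minus PBS, against -0.02 for Upy-PEG minus PBS. Without those 2 libraries the values were 0.11, 0.08 and -0.03. The 6 genes under 2000 bases had a median of 0.36 in antimiR-195 minus Upy-PEG and the other 32 a median of 0.15, against 0.18 and 0.21 without those libraries. With each library's slope on length as a covariate, the median of the 38 was 0.151 in that comparison, -0.253 in Upy-PEG minus PBS and -0.126 in antimiR-195 minus PBS. In that fit 17 of the 38 were lower at an unadjusted p under 0.05 in Upy-PEG minus PBS, against 11% of all genes, the smallest adjusted p was 0.0651, and 332 of all genes passed.

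**Figure D4:**
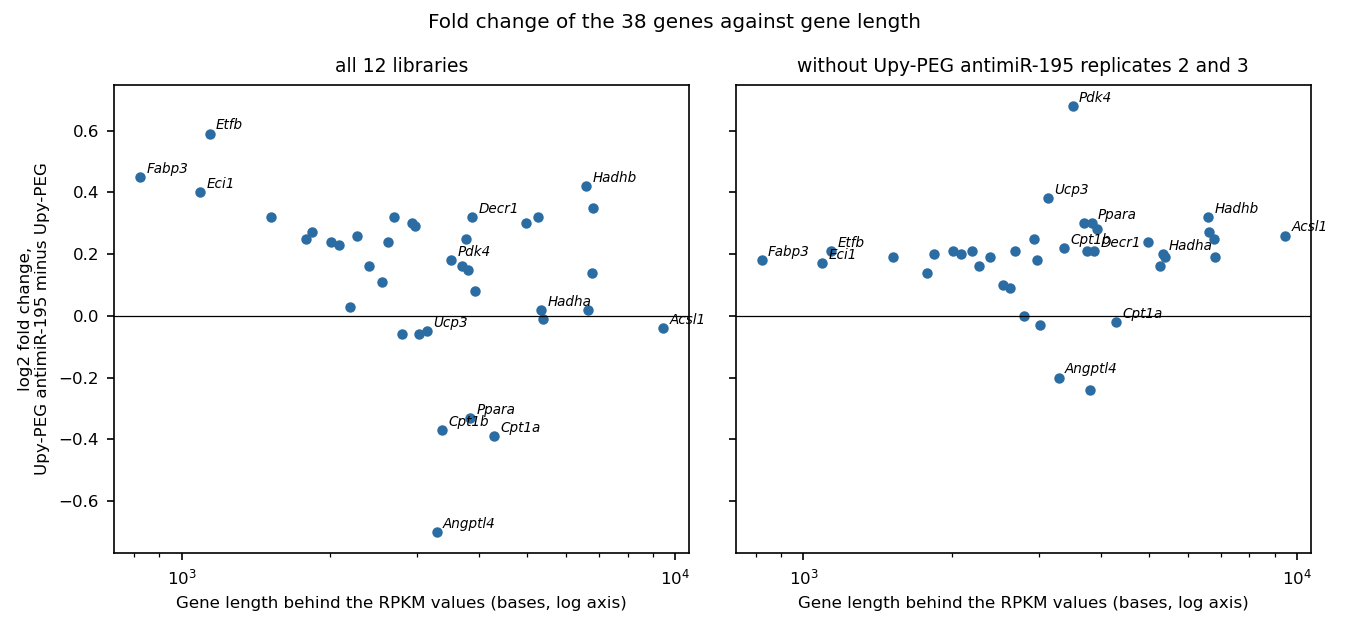
Each point is a gene of the 38, with its length in bases on a log axis and its log2 fold change of Upy-PEG antimiR-195 minus Upy-PEG, fitted with all 12 libraries (left) and without antimiR-195 replicates 2 and 3 (right). The short genes Fabp3, Etfb and Eci1 stand at 0.45, 0.59 and 0.40 on the left and at 0.18, 0.21 and 0.17 on the right.

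The genes stood close to the cardiomyocyte markers in each library. The median over the 38 of log2 CPM minus the mean of all libraries was 0.13, 0.01, 0.12 and -0.03 with antimiR-195, -0.54, -0.21, 0.15 and -0.05 with Upy-PEG, and 0.14, 0.19, -0.00 and 0.10 with PBS. The same measure over 20 cardiomyocyte markers was 0.11, 0.10, 0.26 and -0.00 with antimiR-195, -0.53, -0.16, 0.01 and -0.07 with Upy-PEG, and 0.28, 0.06, -0.00 and 0.04 with PBS. The difference between the lists lay between -0.14 and 0.02 with antimiR-195, -0.05 and 0.14 with Upy-PEG, and -0.14 and 0.12 with PBS, so the groups overlapped. In Upy-PEG minus PBS, 19 of the 20 cardiomyocyte markers were lower, with a median of -0.29 and 2 at an unadjusted p under 0.05. Of all genes 55.3% were lower, and 3.83% were lower at that p. Fewer heart muscle cells in a sample and less RNA per cell cannot be told apart in tissue sequenced whole.

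Markers of macrophages and of the matrix stood the other way in both comparisons with Upy-PEG. Over all genes, 55.3%, 50.8% and 49.2% were lower in Upy-PEG minus PBS, antimiR-195 minus Upy-PEG and antimiR-195 minus PBS. In that order, 3.83%, 6.4% and 7.89% were lower at an unadjusted p under 0.05, and 9.33%, 6.67% and 8.65% higher. In Upy-PEG minus PBS, 19 of 20 macrophage markers were higher (median 0.87, 17 at an unadjusted p under 0.05). Of 15 fibroblast and matrix markers, 14 were higher (median 0.65, 11 at that p) and 1 was lower, also at that p. None passed an adjusted p of 0.05. In antimiR-195 minus Upy-PEG, 16 of 20 cardiomyocyte markers were higher (median 0.26, 8 at that p), 19 of 20 macrophage markers lower (median -0.30, 7 at that p) and 12 of 15 matrix markers lower (median -0.56, 6 at that p). In antimiR-195 minus PBS, 16 of 20 macrophage markers were higher (median 0.61, 11 of these at that p) and 4 were lower (1 at that p). The median was 0.11 for the cardiomyocyte markers (1 lower at that p) and 0.09 for the matrix markers (2 higher at that p). For the 38 genes it was -0.01 (1 lower at that p). Macrophage markers summed to 1069 to 2198 CPM with antimiR-195, 1555 to 2296 CPM with Upy-PEG and 809.6 to 1249 CPM with PBS. Fibroblast and matrix markers summed to 4743 to 7134 CPM with antimiR-195, 5998 to 11680.4 CPM with Upy-PEG and 4939 to 7206 CPM with PBS. Upy-PEG replicate 1, lowest for the fatty acid genes, was the highest library for the matrix list, at 0.90, with replicate 2 next at 0.61. Upy-PEG replicate 3, where the fatty acid genes stood at 0.15, had the matrix list at -0.11 and the macrophage list at 0.07. In antimiR-195 replicate 2 the macrophage list stood at 0.50 and the fatty acid genes at 0.01, and in Upy-PEG replicate 4 at 0.42 and -0.05. In replicate order, the matrix list stood at -0.42, 0.15, -0.19 and -0.17 with antimiR-195 and 0.90, 0.61, -0.11 and 0.15 with Upy-PEG. With PBS it stood at -0.28, -0.36, -0.10 and 0.09. The part of these cells in the levels of the fatty acid genes was not tested. Lpl, Cd36 and Angptl4 are also made by endothelial cells, macrophages or fat cells. Endothelial markers summed to 1165 to 1465 CPM with antimiR-195, 1261 to 1422 CPM with Upy-PEG and 1351 to 1599 CPM with PBS, and 15 of 16 were lower in Upy-PEG minus PBS (median -0.17). Of 12 fat cell markers 6 were too low to test, among them Adipoq with 2 to 19 reads in antimiR-195 libraries, 4 to 7 in Upy-PEG libraries and 3 to 12 in PBS libraries. The 6 tested summed to 592.5 to 1042 CPM with antimiR-195, 458 to 722 CPM with Upy-PEG and 495 to 986 CPM with PBS, with a median of -0.18 in Upy-PEG minus PBS (4 lower) and 0.34 in antimiR-195 minus Upy-PEG (5 higher). Among them Car3, a carbonic anhydrase of fat and slow muscle, stood at -1.34 and 1.18 in these comparisons (unadjusted p = 0.00368 and 0.00899), and Cfd, adipsin, at -1.31 and 1.54 (unadjusted p = 0.0142 and 0.00526).

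**Figure D5:**
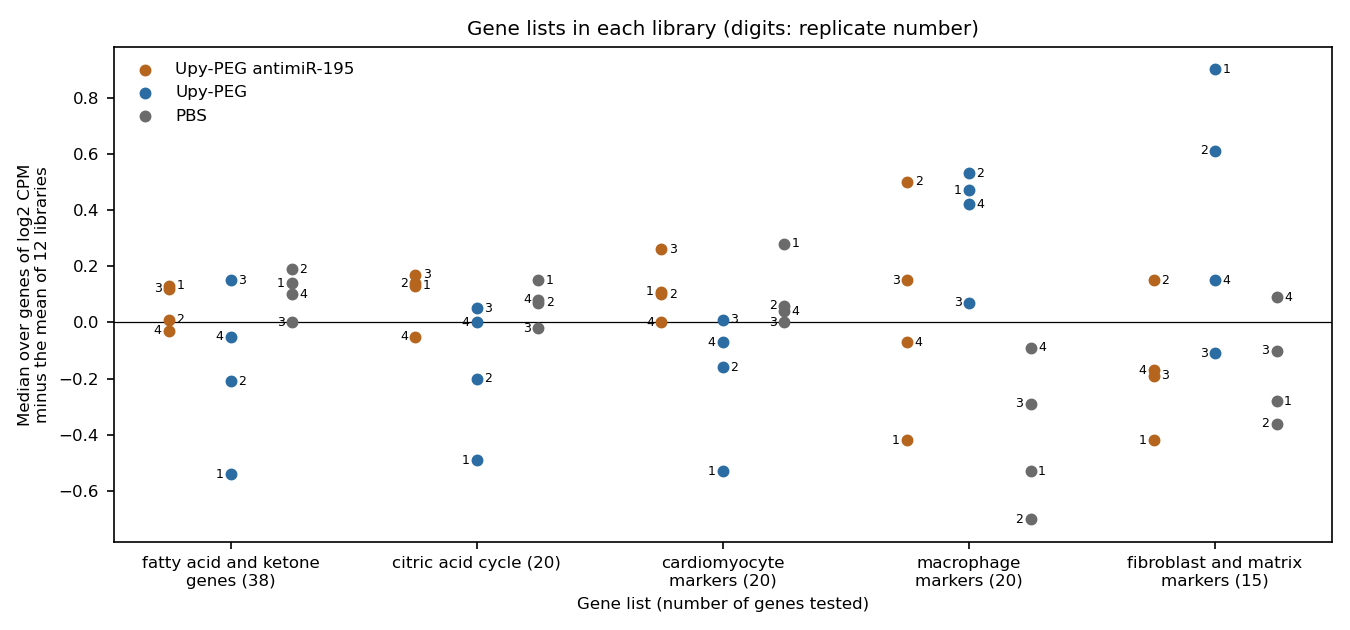
Each point is a library, and its height is the median over the genes of a list of log2 CPM minus the mean of all 12 libraries, for Upy-PEG antimiR-195, Upy-PEG and PBS (digits give the replicate). Upy-PEG replicate 1 is lowest for the fatty acid and ketone genes (-0.54), the citric acid cycle (-0.49) and the cardiomyocyte markers (-0.53), and highest for the fibroblast and matrix markers (0.90).

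Related pathways were counted in the same way. Over all genes, 55.3% were lower in Upy-PEG minus PBS, with 3.83% lower and 9.33% higher at an unadjusted p under 0.05. In antimiR-195 minus Upy-PEG 50.8% were lower, with 6.4% lower and 6.67% higher at that p. Of 20 citric acid cycle genes, 20 were lower with Upy-PEG than with PBS (median -0.23, 4 at an unadjusted p under 0.05), and 17 were higher with antimiR-195 than with Upy-PEG (median 0.26, 7 of them at that p). Of 23 other genes of mitochondrial fatty acid handling, 17 were lower with Upy-PEG (median -0.19, 4 lower and 1 higher at that p), among them Acacb, which makes malonyl-CoA, at -0.46 ± 0.159 (SE). Of 16 peroxisomal genes, 14 were lower with Upy-PEG (median -0.15, none at that p). Of 21 genes of triglyceride storage, 16 were lower (median -0.17, 4 at that p), and Dgat2, which makes triglyceride, stood at -0.52 ± 0.163. Of 41 genes of glucose use, 28 were lower and 13 higher (median -0.18, 7 and 3 at that p). There the glucose transporter Slc2a12 stood at -0.65 ± 0.175 and the hexokinase Hk3, found in blood cells, at 0.87 ± 0.252. Of 24 other regulators of fuel genes, 21 were lower (median -0.16, 3 at that p), with Klf15, a regulator of lipid and amino acid use in muscle, at -0.54 ± 0.164. Of 9 other ketone genes, 6 were lower (median -0.03, 2 at that p), with the transporter Slc16a1 at -0.28 ± 0.124. In antimiR-195 minus Upy-PEG, 14 of the 23 other mitochondrial genes were higher (1 at that p). So were 10 of the 16 peroxisomal genes (2 at that p, with 1 lower). For triglyceride storage 14 of 21 were higher (2 at that p), and for glucose use 25 of 41 (6 at that p, with 3 lower). Of the 24 regulators 12 were higher (none at that p), and of the 9 ketone genes 6 (1 at that p).

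Genes of lipolysis and uptake outside the list were mixed. Of 13, 8 were lower and 5 higher with Upy-PEG than with PBS (median -0.07, 1 and 2 at an unadjusted p under 0.05). Of all genes 55.3% were lower, and at that p 3.83% were lower and 9.33% higher. In antimiR-195 minus Upy-PEG 5 of the 13 were lower and 8 higher (3 and 2 at that p). There 50.8% of all genes were lower, with 6.4% lower and 6.67% higher at that p. Fabp5, a binding protein of macrophages, fat and endothelium, had a mean of 29.4 ± 3.04 CPM with antimiR-195, 33.9 ± 6.25 CPM with Upy-PEG and 21.2 ± 2.71 CPM with PBS (± SD of 4 libraries). It stood at 0.68 ± 0.142 in Upy-PEG minus PBS (SE, adjusted p = 0.0971), the opposite side of 0 from Fabp3. No gene of these related lists passed the adjusted threshold. The genes named from them are among the 2 of lowest p in each list.

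Promoter letters were read for the 31 of 38 genes in the RefSeq table (GRCm38.p6, 250 bases before to 50 after the start), since PPAR alpha and ERR alpha bind known motifs. Lpl, Angptl4, Cpt1b, Crat, Acaa2, Decr1 and Acat1 had no entry. A gene was counted when any of its windows held the motif. The PPAR motif, AGGTCA repeated with 1 base between, was in none of the 31 genes on either strand, and in 0.0481% of all 27025 genes. A looser form with any base at the fourth position of each repeat was in none, against 0.451%, and the ERR motif TCAAGGTCA was in none, against 0.466%. Its core AAGGTCA, which TCAAGGTCA contains, was in 1 gene, Acadm (3.23%), against 5.38% of all genes. No match says only that these letters are not in the window.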

How the data were processed

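Per the labels' protocols, RNA was extracted with TRIzol from snap-frozen left ventricle and libraries were made with a stranded mRNA kit. The authors deposited read counts per gene with HTSeq's classes for other reads. The submitters' processing notes name STAR, HTSeq, DESeq and GRCm38; versions, annotation and strand setting are not given in the sources used here. The RPKM values deposited by the authors are reads per kilobase of gene scaled to the library total, and gave 1 length per gene for 23961 genes. HTSeq's classes that name no gene (no feature, 6.25% to 8.77%; ambiguous, 0.66% to 0.9%) were left out.

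Counts of all 12 libraries were tested with edgeR 4.0.16 (R 4.3.3): filterByExpr, TMM scaling, a model of group means, glmQLFit and glmQLFTest, with Benjamini-Hochberg adjustment over 14770 genes at 0.05. CPM are TMM-scaled. No batch or pairing is given in the labels, and replicates were numbered by accession order, as names only. Symbols and overlaps came from GENCODE M21 (GRCm38), sequences from it and RefSeq (GRCm38.p6).

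The rule for the 38 genes uses no measured value, but they and the other lists were proposed with earlier results of these data known. Values in every library are given for the 8 genes of lowest p in Upy-PEG against PBS, the 5 of lowest p in each other comparison, and 13 genes picked for their roles. Other settings were DESeq2 1.42.0, RLE factors, library size alone, a filter on mean CPM (1) or none, limma 3.58.1 (voom with sample weights, and trend on log2(RPKM + 0.1) or log2(RPKM + 1)), only the 8 libraries compared, leaving out libraries, and a length slope as covariate.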

Additional observations from a re-analysis of the deposited data

Results flagged for a closer look

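In 117 groups of 4 values looked at (3 groups for each of the 38 genes and for the median of the list), 5 held a library far from the other 3 by Dixon's ratio of gap to range; chance flags about 1 in 20 groups. Cd36 was highest in PBS replicate 2, at 1603.8 CPM, with the others at 1291 to 1338. Slc27a1 was lowest in antimiR-195 replicate 2, at 147.7 CPM against 176 to 182 in the others, and highest in PBS replicate 2, at 204.5 CPM against 176 to 179. Cpt1a was lowest in Upy-PEG replicate 4, at 39 CPM, with the others at 50.8 to 52.7. Esrra was lowest in PBS replicate 3, at 135.3 CPM, with the others at 161 to 162. The causes were not tested.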

How the results depend on the processing

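No gene of the 38 passed an adjusted p of 0.05 in any comparison with edgeR or under 23 other settings, except 1 in Upy-PEG minus PBS with limma voom with sample weights (Hadha, -0.355). Over all genes, where edgeR called 0 in each comparison (1944, 1930 and 2444 at an unadjusted p under 0.05 in Upy-PEG minus PBS, antimiR-195 minus Upy-PEG and antimiR-195 minus PBS), DESeq2 called 511, 16 and 97 and voom 918, 0 and 1. In Upy-PEG minus PBS, 69 passed with no low-count filter, 172 with only the 8 libraries, 349 without antimiR-195 replicates 2 and 3, 332 with the length covariate, and 0 to 150 when 1 library was left out. With library size alone the median of all genes was 0.073 in Upy-PEG minus PBS and -0.156 in antimiR-195 minus Upy-PEG, against -0.028 and -0.005. Of the 38, 33 and 15 were lower, against 35.2% and 71.1% of all genes. The list's median minus that of all genes was then -0.235 and 0.243, against -0.225 and 0.209. Leaving out 1 library gave list medians of -0.361 to -0.132, 0.098 to 0.316 and -0.068 to 0.018 in the 3 comparisons.

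Of 2622 values of single genes under other settings, 178 changed sign, 21 of them with a value past its SE; the causes were not tested. In Upy-PEG minus PBS this was Bdh1 at 0.269 with voom. In antimiR-195 minus Upy-PEG, without antimiR-195 replicates 2 and 3, Acsl1 became 0.255, Cpt1b 0.216 and Crat 0.185, and Hadha became -0.143 and -0.142 with limma-trend on log2(RPKM + 0.1) and log2(RPKM + 1). In antimiR-195 minus PBS, without those libraries, Angptl4 became 0.355, Cd36 0.195, Fabp3 -0.002 and Etfb -0.041. With the length covariate Fabp3 became -0.063, Acadvl -0.189, Etfa -0.154, Etfb -0.131, Echs1 -0.123, Eci1 -0.221, Eci2 -0.158, Decr1 -0.129 and Bdh1 -0.336. Leaving out 1 library, Ucp3 ranged from -0.288 to 0.407 in antimiR-195 minus Upy-PEG and Pdk4 from -0.58 to 0.544 in antimiR-195 minus PBS. No paired analysis was possible because the labels carry no replicate numbers. Cpt1b and Angptl4 had the lowest mean counts of the 38, at 40 to 220 and 61 to 427 per library.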
